A study of Oryzias latipes with 6 samples.

Results

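Complex I, or NADH:ubiquinone oxidoreductase, is the entry point of electrons into the respiratory chain of mitochondria. The mitochondrial DNA of vertebrates encodes 7 of its subunits, ND1, ND2, ND3, ND4, ND4L, ND5 and ND6, which lie together in the arm of the complex that crosses the inner membrane and moves protons. Their mRNAs were followed here in the gill of the medaka (Oryzias latipes), a small teleost fish. Rows of the deposited library tables were taken when they bore one of these names and lay on the mitochondrial DNA, which gave 7 of 24365 gene IDs and 7 of the 13 mRNAs of that molecule. Mitochondrial DNA is transcribed from both strands into long precursors that are cut at the tRNAs, and every subunit is built into the complex in equal number. Gills hold mitochondria-rich cells, the ionocytes, which take up and secrete salt.

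The study asked, mainly by lineage analysis, whether separate stem cells serve growth and homeostasis in the gill. To complement this, it compared RNA of the growing tip of a filament with RNA of its differentiated middle. Gills came from untreated adult fish of the Cab strain, and pieces of the apical tip and of the central part of the filaments, called medial in the methods, were cut out by hand. RNA of many pieces was combined, poly(A)-selected and read as single ends. The labels name 2 RNA samples per domain, A and B, so that n is 2. A repeat library, averaged with the other, was made for the A sample of the central and for the B sample of the apical domain. A caption of the study calls the libraries of a domain biological replicates, whereas the labels give a repeat library the same letter as the other. Which fish went into A and which into B is not stated in the sources used here, and pieces of several fish may be pooled in each, so p-values measure only the spread between these RNA samples, which may be technical. In pieces of tissue, fewer cells of a type and less RNA per cell cannot be told apart.

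Levels are given in FPKM, the fragments assigned to a gene model scaled to its effective length in kilobases and to the mapped fragments of the library. The effective length is the length of the model less the fragment length that Cufflinks assumed for the library. The deposited intervals imply between 24200000 mapped fragments in apical A and 79400000 in library 2 of central A. They also imply a fragment length of 207 to 212 nt in the 3 central libraries and in library 2 of apical B, and of 113 and 118 nt in apical A and library 1 of apical B. Nuclear rows were of little use as a check of the tissue. The median over 84 ribosomal protein rows was 0.00399 FPKM, below the 0.0172 FPKM of all 24328 nuclear rows, so that the gene behind a named nuclear row is uncertain. Of 23 genes listed as markers of mitochondria-rich cells 14 had a row, 4 of these were at 0 in every library, and the row of foxi1, the transcription factor that specifies ionocytes, stood at 6.78 FPKM centrally and 5.57 FPKM apically.

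The 7 rows were described by the same coordinates in the library tables and in the RefSeq annotation of ASM223467v1. On the mitochondrial DNA, chromosome M of the files, ND1 (ENSORLG00000021753) lies from 2832 to 3806 and ND2 (ENSORLG00000021757) from 4017 to 5067. Further on, ND3 (ENSORLG00000021772) lies from 9626 to 9974, ND4L (ENSORLG00000021774) from 10044 to 10340 and ND4 (ENSORLG00000021775) from 10334 to 11714. The last of them are ND5 (ENSORLG00000021779), from 11932 to 13770, and ND6 (ENSORLG00000021780), from 13766 to 14287. Each is a gene model without an intron. Neighbours overlap at 2 places, ND4L and ND4 by 7 bases (10334 to 10340) and ND5 and ND6 by 5 bases (13766 to 13770). The models of ND2 (1051 bp), ND3 (349 bp) and ND4 (1381 bp) leave 1 base after their last whole codon, as is known of vertebrate mitochondrial genes whose stop codon is completed by the poly(A) tail. The models of ND1 (975 bp), ND4L (297 bp), ND5 (1839 bp) and ND6 (522 bp) leave 0 bases.

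The 7 mRNAs differed widely in level, and their order was the same in every library but apical A, where ND1 was above ND5. ND4 stood highest with 850 ± 164 FPKM (SD, n = 4 RNA samples), followed by ND6 with 607 ± 101.5 and ND4L with 424 ± 140 FPKM (SD, n = 4). ND5 had 231 ± 25.5 FPKM and ND1 212 ± 32.8 FPKM (SD, n = 4). The 2 lowest were ND2 with 37.7 ± 7.05 FPKM and ND3 with 10.3 ± 2.33 FPKM (SD, n = 4). From ND4 to ND3 the fold was 83.2, or 6.38 ± 0.05 on the log2 scale (SD, n = 4). By mean FPKM over all gene IDs, ND4 ranked 7, ND6 9, ND4L 12, ND5 22, ND1 24, ND2 94 and ND3 325. These ranks hold for the deposited rows only. The nuclear rows had a median of 0.0172 FPKM and may not give the levels of their genes in the gill.

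**Figure D1:**
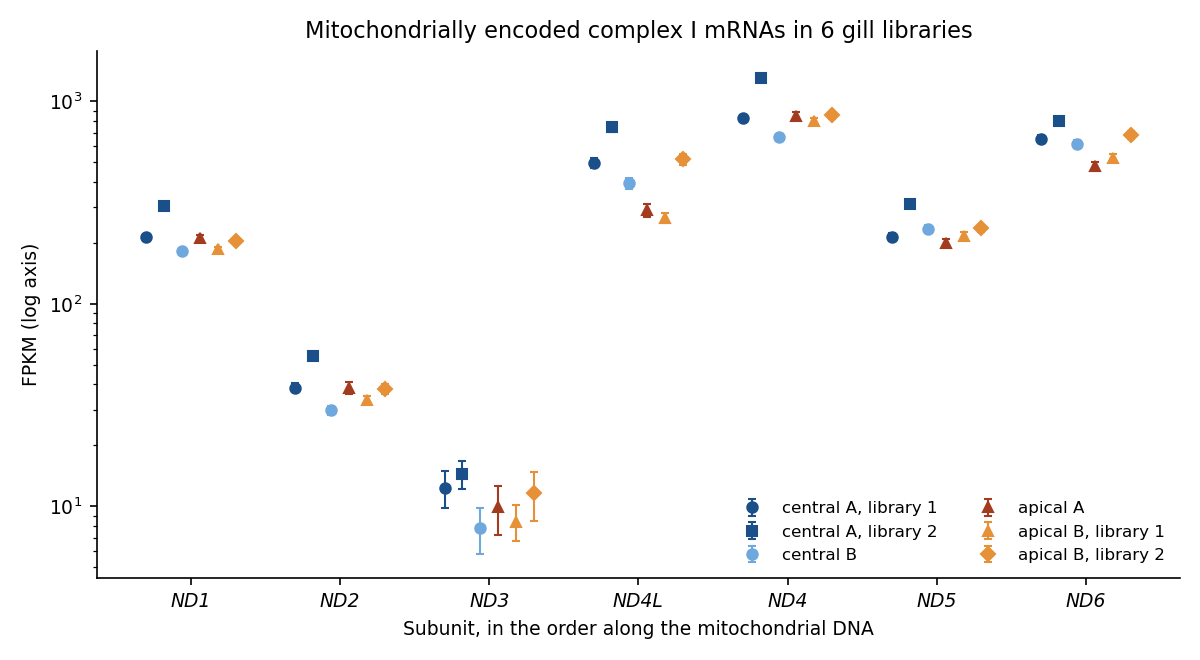
FPKM of the 7 subunits (log axis) in each of the 6 libraries, with the deposited 95% interval as bars. Library 2 of central A is highest for every subunit, and ND3, at 7.78 to 14.5 FPKM, lies below ND2, at 29.8 to 55.0 FPKM, in every library.

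ND2, ND4 and ND5 are the 3 large subunits that resemble ion antiporters and carry the proton channels of the membrane arm. Values are listed with library 1 of an RNA sample before library 2 and A before B. In the central domain ND4 stood at 826 and 1301 FPKM (both A) and at 664 FPKM (B). In the apical domain it stood at 850 FPKM (A) and at 796 and 852 FPKM (both B). The apical values lay inside the range of the central ones. ND5 stood at 214, 311 and 235 FPKM centrally and at 201, 217 and 236 FPKM apically. These groups overlap as well. ND2 had 38.6, 55.0 and 29.8 FPKM centrally and 38.5, 33.5 and 38.0 FPKM apically. It was thus far below its relatives, in each library.

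ND1 lies at the junction with the arm that reaches into the matrix and helps to form the site where ubiquinone is reduced. It stood at 214, 303 and 183 FPKM centrally and at 212, 188 and 205 FPKM apically. The lowest and the highest of the 6 values were both central.

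ND3, ND4L and ND6 are small subunits that lie between ND1 and the antiporter-like subunits. ND3 had 12.4, 14.5 and 7.78 FPKM centrally and 9.88, 8.41 and 11.6 FPKM apically. These values rest on 54 to 163 fragments, and the half-width of their 95% interval is 15.7% to 27.3% of the value, against 1.48% to 2.996% for ND1. The next mRNA before ND3 on the molecule is that of COX3, a subunit of cytochrome oxidase, and COX3 was 554 to 760 times higher in the 4 RNA samples. ND4L had 498, 745 and 395 FPKM centrally and 290, 265 and 517 FPKM apically. Its highest apical value, in library 2 of apical B, was above 2 of its 3 central values. ND6 had 653, 803 and 616 FPKM centrally and 480, 524 and 685 FPKM apically, of which only the last lay inside the central range. In vertebrates ND6 is the only mRNA of the mitochondrial DNA encoded on the light strand, and in human cells it carries hardly any poly(A) tail. Whether the libraries kept the strand is not given in the sources used here, so reads of ND6 and reads from the opposite strand of the same stretch cannot be told apart.

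Neighbours in the order of levels were compared inside each RNA sample. The order was taken from the means of these same samples, so the direction of each step was largely set by the sorting. ND1 exceeded ND2 by 2.50 ± 0.08 on the log2 scale, 5.66-fold, and ND2 exceeded ND3 by 1.88 ± 0.08, 3.69-fold (SD, n = 4, same direction in 4 of 4 samples). The steps from ND4 to ND6 (0.48 ± 0.30), from ND6 to ND4L (0.56 ± 0.22) and from ND4L to ND5 (0.83 ± 0.30) also had the same direction in 4 of 4 samples and in all 6 libraries. ND5 exceeded ND1 by 0.13 ± 0.19, less than the spread, in 3 of 4 samples. For each of the other 5 steps the two-sided exact sign-flip permutation test gave p = 0.125 (0.15 when adjusted over the 6 pairs), which is the smallest p that this test can give with 4 samples, and for ND5 and ND1 it gave p = 0.375. The place of ND4L depends on its effective length. In fragments per kilobase of the full model it fell below ND5 and ND1, and the order was ND4, ND6, ND5, ND1, ND4L, ND2 and ND3.

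The ratios between subunits inside a library differed in how far they varied. ND2 stood at 0.163 to 0.185 of ND1 in the 6 libraries, a coefficient of variation of 4.38%, and ND4 at 3.62 to 4.29 times ND1 (6.28%). ND1 itself ran from 183 to 303 FPKM. The ratio to ND1 was looser for ND3 (a coefficient of variation of 12.97%), ND6 (14.6%) and ND4L (25.4%). For ND5 it was 11.3%. ND5 stood at 1.004, 1.03 and 0.948 times ND1 in the 3 libraries of letter A, and at 1.28, 1.16 and 1.15 times in the 3 of letter B, a split by letter and not by domain that was noticed in the values and not tested. What the letters share is not stated in the sources used here. Over the 6 libraries Pearson's r of log2(FPKM + 1), after scaling of the libraries, was 0.983 for ND2 and ND4, 0.978 for ND1 and ND2, and 0.484 for ND3 and ND5, the lowest of the 21 pairs. The libraries come from only 4 RNA samples, and these r serve as a description.

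The question of the design is whether the subunits differ between the tip and the middle of the filament. None of the 7 passed the test. Over all rows, limma called 5 of 2984 tested rows, 0.168%, at an adjusted p under 0.05, and 0 of the 7 subunits were among them. At an unadjusted p under 0.05 it was 0 of the 7, against 223 rows or 7.47%. The groups of libraries overlapped for all 7, as they did for most tested rows. Every apical library was below every central one in 13.9% of the tested rows, and above in 9.68%. These shares hold for the deposited rows only, most of them nuclear, which may not give the levels of their genes. Fold changes are apical minus central on log2(FPKM + 1), and their median was -0.06 over the 7, beside 0.00 over all tested rows.

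ND4L had the lowest value, a central mean of 508 ± 161 FPKM and an apical mean of 341 ± 71.4 FPKM (SD, n = 2 each), with a log2 fold change of -0.56 (standard error 0.30, 95% interval -1.37 to 0.25, adjusted p = 0.735 from limma). ND6 had 672 ± 79.4 and 542 ± 88.1 FPKM (SD, n = 2 each) and a log2 fold change of -0.30 (standard error 0.22, 95% interval -0.89 to 0.30). ND5 had 249 ± 19.9 and 214 ± 18.3 FPKM (SD, n = 2 each) and -0.19 (standard error 0.19, 95% interval -0.70 to 0.33). For ND1 the log2 fold change was -0.06, for ND3 -0.03, for ND2 0.02 and for ND4 0.03, with 95% intervals between -0.76 and 0.79. Adjusted p-values of all 7 from limma were between 0.735 and 0.988. Such intervals do not show that the domains are alike.

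**Figure D2:**
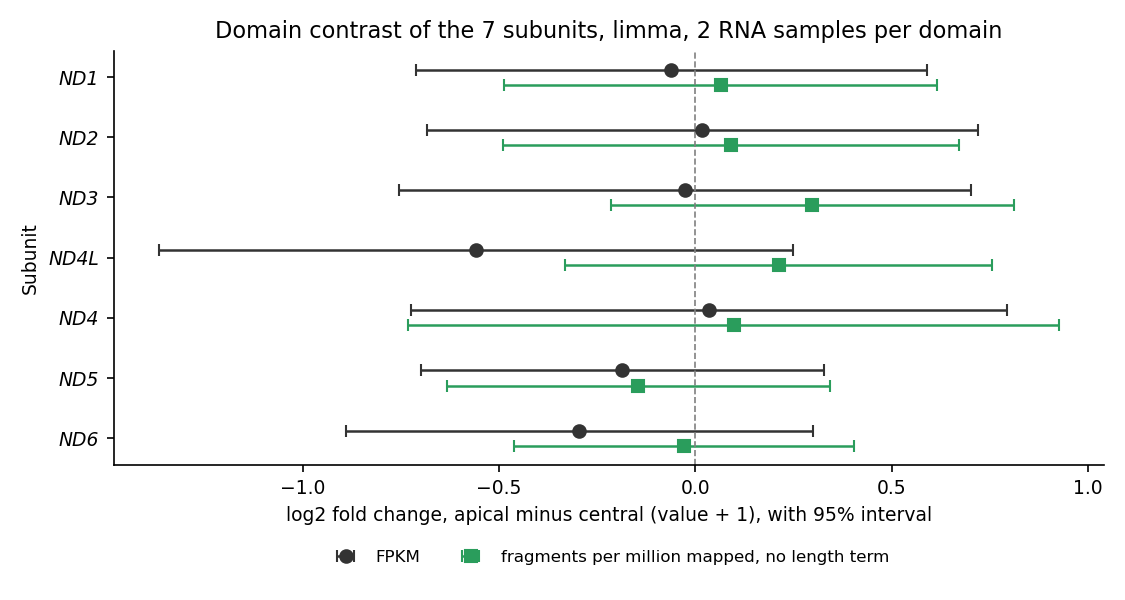
Log2 fold change of each subunit, apical minus central, with its 95% interval from limma (2 RNA samples per domain), on FPKM (black circles) and on depth-scaled fragments with no length term (green squares). All 14 intervals include 0, and ND4L changes from -0.56 to 0.21.

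The FPKM of ND4L relative to ND4 differed between libraries of long and of short fragment length. Library 2 of apical B is the only apical library of long fragment length, so fragment length and domain largely coincide. Their parts in this difference were not tested. Relative to ND4, with which it shares a bicistronic mRNA in human mitochondria, ND4L stood at 0.604, 0.573 and 0.595 in the 3 central libraries and at 0.607 in library 2 of apical B. These are the 4 libraries with a fragment length of 207 to 212 nt. In apical A and library 1 of apical B, with 113 and 118 nt, it stood at 0.341 and 0.333. The 2 libraries of apical B bear the same letter in the labels, and their FPKM of ND4L differ 1.95-fold. Counted as fragments, ND4L was 0.0419 to 0.0496 of ND4 in all 6 libraries. The fragments of ND4L, ND4, ND5 and ND6 were computed from FPKM, effective length and mapped fragments, since their intervals are wider than counting error gives. For ND4 the intervals imply 2158 to 2308 fragments, against 26110 to 120795 computed. Whether this width comes from dividing reads between overlapping models was not tested. For ND3, which overlaps no other model, the computed number differed from the count given by the interval by at most 3.62%. Between the domains, the log2 fold change of ND4L was 0.21 (95% interval -0.33 to 0.76, adjusted p = 0.700 from limma) on depth-scaled fragments, which are fragments divided by those mapped in the library. It was 0.05 among the 4 libraries of like fragment length, which hold a lone apical library. On FPKM its unadjusted p was under 0.05 in 2 alternatives, 0.0269 when scaled to the 13 mitochondrial mRNAs and 0.0288 with library 1 only, both from limma.

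**Figure D3:**
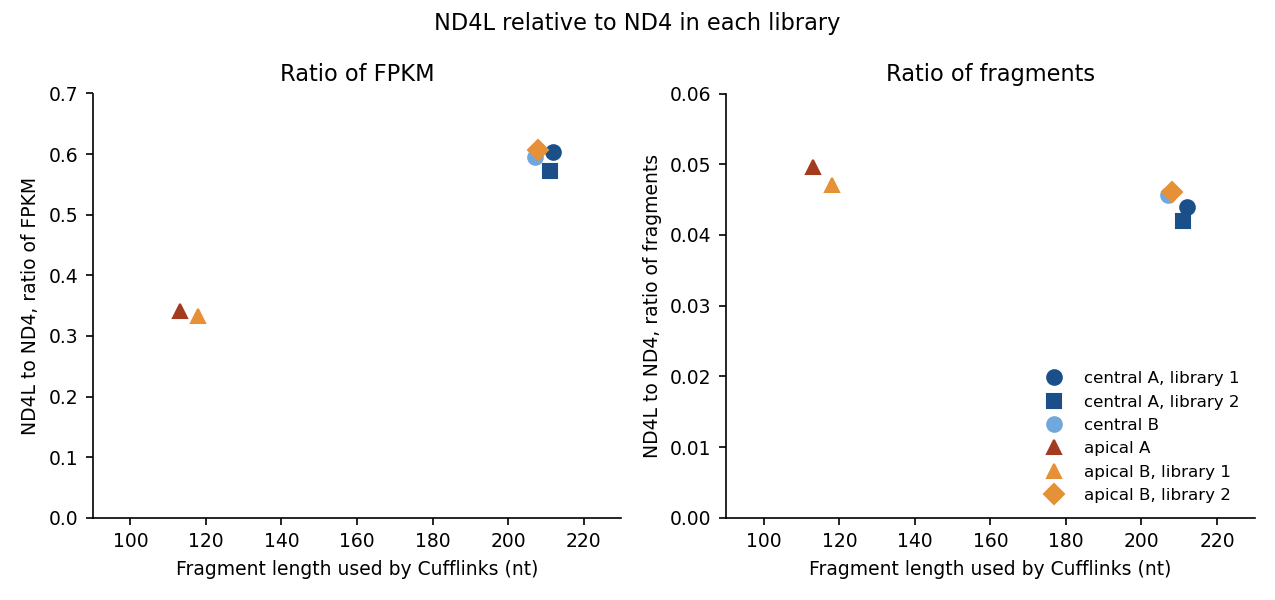
Ratio of ND4L to ND4 in FPKM (left) and in fragments (right) against the fragment length implied by the deposited intervals, in nt, 1 point per library. The fragments were computed with that same length. In FPKM the 2 libraries of short fragment length lie at 0.333 and 0.341 and the other 4 at 0.573 to 0.607, while in fragments all 6 lie between 0.0419 and 0.0496.

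The ratio of ND6 to ND5 was 2.39 and 2.41 in the 2 libraries of short fragment length and 2.58 to 3.04 in the other 4, and in fragments it was 0.493 to 0.580 in all 6. On depth-scaled fragments 2 of the 7 subunits had a log2 fold change under 0, against 35.7% of all tested rows, and their median was 0.09, beside 0.08 for those rows. On FPKM it was 5 of the 7, against 50% of all tested rows. Outside the overlapping mitochondrial models, fragments were read from the interval, so on depth-scaled fragments the comparison with all tested rows is not wholly like for like. On neither scale did any subunit pass limma's test, and ND5 alone kept its direction in all 18 alternatives, from -0.29 to -0.07. Another minimum, the block by letter and robust eBayes cannot change a log2 fold change, and ND5 stayed at -0.19 in these.

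On FPKM, libraries labelled with the same letter of a domain differed beyond their deposited intervals for most but not all subunits. Library 2 of central A was above library 1 for all 7 subunits, by 1.17-fold for ND3 to 1.58-fold for ND4, and the 95% intervals did not overlap for 6 of the 7. In apical B the folds were 1.07 for ND4 to 1.95 for ND4L, with intervals apart for 4 of the 7, whereas in depth-scaled fragments they were 0.832 to 1.03. In central A the folds were 1.17 to 1.58 in depth-scaled fragments as well. Library 2 of central A was the highest of all 6 libraries for all 7 subunits, and central B the lowest for 4. Without that library (an alternative added once the values had been seen) the log2 fold changes were between -0.43 for ND4L and 0.18 for ND4, and 0 of the 7 passed limma's adjusted threshold.

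In FPKM and in fragments, the subunits of complex I made up a smaller part of the mitochondrial mRNAs in the apical libraries. Summed, the 7 reached 2562 ± 612 FPKM centrally and 2185 ± 147 FPKM apically (SD, n = 2 each). Of the 13 mitochondrial mRNAs they made up 14.8%, 16.5% and 15.0% of FPKM in the central libraries. In the apical libraries it was 12.2% to 13.3%. Each apical library thus lay below each central one. The same was found for the FPKM of 13.9% of the tested rows, which are levels of single rows and not shares of a sum. The 6 libraries come from only 4 RNA samples. The mean was 15.3 ± 0.449% (SD, n = 2) in the central and 12.9 ± 0.183% (SD, n = 2) in the apical domain, a difference of -2.45 percentage points. The two-sided exact permutation test gave p = 0.333, the smallest p that this test can give with 2 against 2 samples. In fragments the shares were 14.2%, 16.2% and 14.6% centrally and 13.6%, 12.7% and 12.8% apically, again without overlap. How many of the tested rows lack overlap in fragments was not computed. The first 2 central shares come from libraries labelled with the same letter, 14.8% and 16.5% in FPKM. In fragments these 2 lie further apart than the domain means, which differ by -1.76 percentage points. Without the models under 600 bp, which leaves out ND3, ND4L and ND6, the shares do overlap. They were then 8.39%, 9.90% and 8.44% centrally and 8.55%, 7.75% and 7.45% apically. The difference of the domain means was -0.72 points (p = 0.667, exact permutation test). Apical A and library 1 of apical B have short fragment lengths, 113 and 118 nt, and a low FPKM of ND4L relative to ND4. Among the libraries of like fragment length, with a lone apical library, the difference in FPKM was -1.99 points. The part that fragment length has in the share was not tested.

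**Figure D4:**
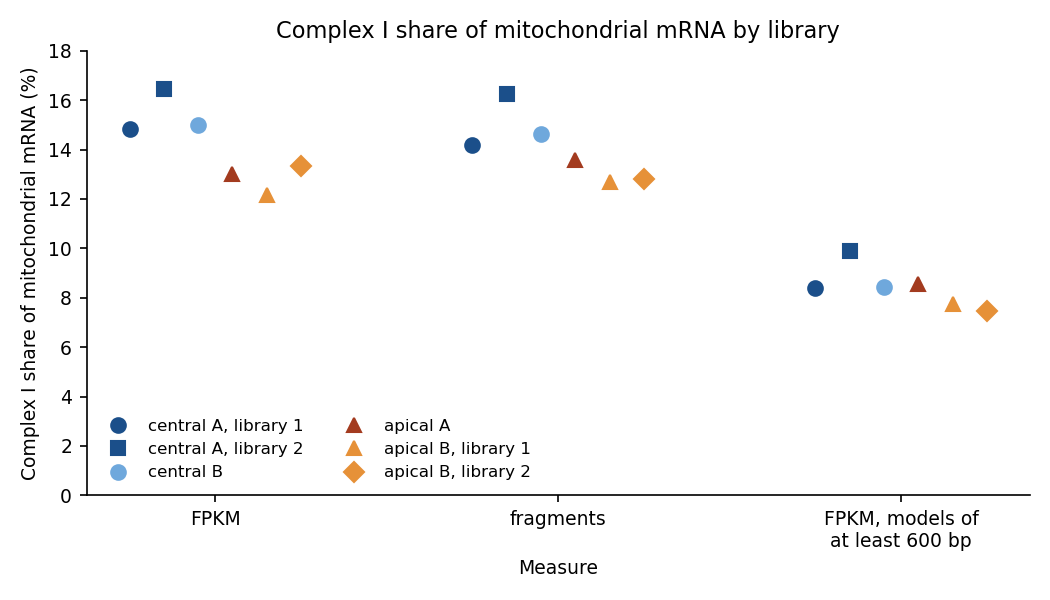
Share (%) of the 7 complex I subunits in the summed level of the mitochondrial mRNAs, by library, in FPKM, in fragments and in FPKM without models under 600 bp. The apical libraries lie below the central ones in the first 2 groups, at 12.2% to 13.3% against 14.8% to 16.5% in FPKM, and overlap with them in the last. The 6 libraries come from 4 RNA samples.

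The remaining mitochondrial mRNAs lay mostly above these levels. Over the 4 RNA samples, COX3 had a mean of 6630 FPKM, cytochrome b (CYTB) 3276, COX1 2251 and COX2 2034 FPKM, while ATP6, a subunit of ATP synthase, was at 212 FPKM beside ND1. The short ATP8 was listed at 0 to 3.26 FPKM. Inside the complex, ND4 made up 31.2% to 40.9% of the summed FPKM of the 7, ND6 22.7% to 28.9% and ND4L 13.04% to 21.1%. ND2 made up 1.40% to 1.85% and ND3 0.366% to 0.504%.

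Most subunits of complex I are encoded in the nucleus and imported into mitochondria. As said above, the gene behind a named nuclear row is uncertain, which holds for every row and marker sum given next. Of 38 nuclear subunits on the list 34 rows were found, counting gene copies, of which 16 were at 0 in every library and 3 were high enough to be tested. None of the 3 passed limma's adjusted threshold, with a median log2 fold change of -0.17. The row named ndufa4, a subunit later assigned to cytochrome oxidase, stood at 3.08 FPKM centrally and 0.0559 FPKM apically, and limma gave -1.83 on the log2 scale with a standard error of 0.42 and an adjusted p of 0.465. It was alone among these 3 with an unadjusted p under 0.05. For ndufa7 and ndufc2, accessory subunits, the log2 fold changes were -0.17 and 0.35. Of 17 genes for assembly of the complex 13 had a row and 3 were tested, of which 0 passed limma's adjusted threshold. They are acad9 at -0.22, ecsit at 0.06 and ndufaf7, a methyltransferase that modifies a nuclear subunit, at -0.72 (standard error 0.26; adjusted p = 0.661, unadjusted p = 0.0485 from limma). Of 29 genes for mitochondrial transcription and mRNA handling 25 had a row and 2 were tested, tfam, the factor that packs mitochondrial DNA and starts its transcription, at -0.04, and hsd17b10, a subunit of mitochondrial RNase P, at 0.21. For markers of mitochondria-rich cells the summed level was 21.1 to 23.1 FPKM centrally and 18.3 FPKM in both apical samples, and 0 of 3 tested rows passed limma's adjusted threshold. Of the share of complex I, which is lower in the same samples, the part that such cells have was not tested. The summed level was 10.9 to 12.1 FPKM centrally and 10.5 to 12.9 FPKM apically for markers of pavement and other epithelial cells, 3.55 to 3.89 and 3.201 to 3.54 FPKM for skeletal muscle, and 0.175 to 0.200 and 0.177 to 0.296 FPKM for erythrocytes. Both apical samples thus lay below both central ones for skeletal muscle too. The same held for the nuclear subunits (4.61 to 9.84 FPKM centrally, 4.05 to 4.48 FPKM apically). It also held for the assembly genes (9.06 to 10.5 and 7.12 to 8.06 FPKM). The sums overlapped for epithelial cells, erythrocytes, and mitochondrial transcription and mRNA handling. How often a sum of rows splits in this way was not computed.

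Rows outside the 7 were ranked by their likeness to the mean of log2(FPKM + 1) of the subunits over the 6 libraries. Among 1649 rows with a symbol and at least 1 FPKM in every library, 7 had a Pearson's r over 0.9. The 5 highest were PDZD7 (0.946), mtf2 (0.936), map3k14a (0.931), lrrc8da (0.929) and zgc:77748 (0.913), all of them nuclear rows of uncertain name. Of the other mitochondrial mRNAs COX3 came nearest, with r = 0.835 at rank 19, then CYTB (0.705), ATP6 (0.656), COX2 (0.589) and COX1 (0.521). With 6 libraries of 4 RNA samples, this ranking is a description.

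The table of domain means that the authors deposited gives the subunits on other scales. There ND4, ND5, ND6 and ND4L have an authors' mean of 16017, 4370, 11927 and 8284 FPKM for the central and of 14701, 3795, 11086 and 7555 FPKM in the apical domain. These are 16.3 to 22.2 times the means of the library tables, near the median factor over all tested rows, 17.2 in each domain. ND1, ND2 and ND3 have an authors' mean of 1.84, 0.966 and 2.95 FPKM for the central and of 2.04, 0.457 and 4.68 FPKM in the apical domain, below the library tables. For ND1 the authors' mean is 120 times lower in the central and 100 times lower in the apical domain, and for ND2 39.7 and 81.2 times. Factors under 0.5 were found for 1.58% and 1.62% of the tested rows. COX1, COX2 and ATP6 share the low factors, at 0.0228 to 0.132, and COX3 and CYTB the high ones, at 14.8 to 18.9. The order of the subunits in that table is therefore not the order in the libraries, and the library tables were used for all comparisons here.

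**Figure D5:**
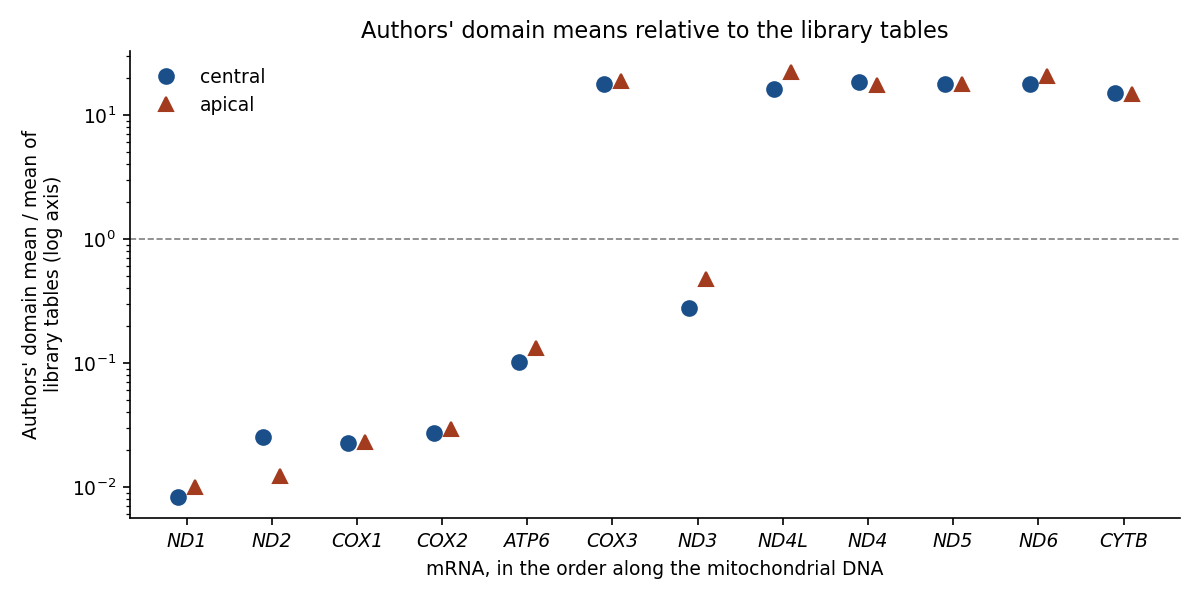
Ratio of the authors' domain mean to the mean of the library tables (log axis) for 12 mitochondrial mRNAs in their order on the molecule, central as circles and apical as triangles. ND4L, ND4, ND5, ND6, COX3 and CYTB lie at 14.8 to 22.2, while ND1, ND2 and ND3 lie at 0.00836 to 0.471.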

How the data were processed

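Poly(A)-selected RNA of the central and the apical domain was measured in 6 libraries of 4 RNA samples. The authors aligned the reads to oryLat2 with HISAT2 and estimated FPKM with 95% interval bounds in Cufflinks 2.2.1. For the aligner's version and the annotation, the sources used here give no release. The deposited comparison table holds domain means in FPKM from Cuffdiff, and its fold changes, statistics, p-values and q-values were not used.

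FPKM of 4 gene IDs that stand on 2 rows were summed. Fragments follow from the distance between FPKM and upper bound, read as 2 standard deviations. Depth and fragment length were fitted on 8 non-overlapping mitochondrial models of 600 bp or more. Intervals cover counting error, and those of ND4L, ND4, ND5 and ND6, whose models overlap, are wider than counting error gives. They do not allow for PCR copies, which are not independent molecules. Libraries were scaled by their median ratio over 2342 rows above 1 FPKM throughout (factors of 0.975 to 1.03). Repeat libraries were averaged as log2(FPKM + 1), a scale that understates the change of low rows. Domains were compared in R 4.3.3 by limma 3.58.1 with trended eBayes, a threshold of 0.05 and Benjamini-Hochberg adjusted p, for the 2984 rows with a sum of both domain means of 2 FPKM or more. Exact tests were made in Python 3.11.15. Levels and shares use FPKM as deposited.

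The subunits, lists, tests and alternatives were chosen with earlier results of these data known. Named are all 7 subunits, the 5 rows most like them and at most 3 tested rows per pathway list. The other mitochondrial mRNAs, beyond a range, and the ratios of subunits were chosen after their values were seen. Alternatives were other pseudocounts, minimums, scalings and library choices, depth-scaled fragments, a block by letter, robust eBayes and each RNA sample left out.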

Additional observations from a re-analysis of the deposited data

How the results depend on the processing

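In all 18 alternatives 0 of the 7 subunits passed limma's adjusted threshold, and their adjusted p-values ran from 0.419 (ND4L, 6 libraries as independent samples) to 1. The letters A and B were not treated as pairs, since the correlation of the deviations of like letters was 0.0511 across rows and no source used here says what a letter marks. With them as a block 5 rows were called, 0 of them a subunit. The block cannot move the difference in the share of complex I, -2.45 percentage points, since each domain holds both letters. This share stayed lower in the apical domain in all 13 alternatives, the block included, from -2.77 to -0.72 points. Alternatives that only choose among the libraries could not turn it, since each apical library lies below each central one in FPKM. The smallest difference, -0.72 points without the models under 600 bp, had p = 0.667 in the exact permutation test.

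Against 5 rows called in the fit as reported, limma called 3 with a pseudocount of 0.1, 2 with no minimum, 15 scaled to the 13 mitochondrial mRNAs, 28 with 6 libraries as independent samples, 14 with library 1 only, 1 on depth-scaled fragments, 3 among libraries of like fragment length and 9 with robust eBayes. With 1 RNA sample left out, where the lone sample of a domain is assumed to vary like the others, it called 0 (without apical A) to 20 (without central B), and 12 without central A.

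Directions turned for 6 subunits. ND1 was at 0.0358 with library 1 only, 0.0648 on depth-scaled fragments and 0.0510 without library 2 of central A. ND2 was at -0.00206 with FPKM as deposited, -0.0479 scaled to the mitochondrial mRNAs, -0.101 with 6 libraries and -0.0670 with library 2 only. ND3 was at 0.0249 with library 2 only, 0.298 on depth-scaled fragments, 0.148 at like fragment length and 0.0132 without library 2 of central A. ND4 was at -0.0347 scaled to the mitochondrial mRNAs, -0.0805 with 6 libraries and -0.110 with library 2 only. ND4L was at 0.212 on depth-scaled fragments and 0.0532 at like fragment length, and ND6 at 0.0126 there. With 1 RNA sample left out, ND1 ran from -0.29 to 0.16, ND2 from -0.28 to 0.31, ND3 from -0.37 to 0.32 and ND4 from -0.28 to 0.34. ND1 and ND3 turned without central A (ND1 also without apical B, at 0.00256), and ND2 and ND4 without central B (ND2 also without apical A, at -0.0438). The log2 difference of ND4 over ND3 was 7.23 in fragments per kilobase and 6.31 at like fragment length. The values of ND3 rest on only 54 to 163 fragments.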
